A study of Homo sapiens with 18 samples.

Results

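The genes described here encode the transcription factors that sit in the membrane of the endoplasmic reticulum (ER) and the proteases that release them. They were chosen by name. They comprise the ER stress sensors ATF6 and ATF6B, the related factors CREB3, CREB3L1, CREB3L2 and CREB3L4, and the site-1 and site-2 proteases MBTPS1 and MBTPS2. Each of the 8 symbols had 1 row among the 25435 rows of the gene count table, and all 8 passed the filter on low counts in every comparison. CREB3L3, the family member of liver and intestine, was not tested because it had too few reads.

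RNA-Seq was done on HEK293doxERN2 cells, a human embryonic kidney line that carries a doxycycline-inducible FLAG-ERN2 transgene. ERN2, also called IRE1β, is the IRE1 paralog of mucosal epithelium. Doxycycline was given for 24 hours at 0 ng/mL (no ERN2), 10 ng/mL (low ERN2) or 100 ng/mL (high ERN2). At each dose the cells received DMSO vehicle or 200 nM thapsigargin, which blocks calcium uptake into the ER and so stresses it, for 3 hours. Each of these 6 groups had 3 libraries, 18 in all. Every group carried the transgene and none paired doxycycline with cells lacking it, so effects of doxycycline and of ERN2 cannot be told apart. The labels do not say whether the libraries of a group came from separate cultures, so the tests measure the spread between libraries, which may be technical.

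Library totals ran from 14876416 to 24652240 reads counted on genes. ERN2 itself was measured at 6.57 to 9.10 CPM (counts scaled to library size) in the libraries without doxycycline, 22.5 to 55.9 CPM at the low dose and 249 to 309 CPM at the high dose, all with vehicle. With thapsigargin the ranges were 10.4 to 14.2, 32.1 to 112 and 175 to 272 CPM, so that no ranges overlapped between doses. All 8 listed genes of the HEK293 line were detected. Of 10 colon and goblet cell genes, CDX2 lay between 3.36 and 8.83 CPM and none of the rest exceeded 0.513 CPM, with TFF3 and CLCA1 at 0. The thapsigargin check genes HSPA5, DDIT3 and HERPUD1 rose without doxycycline by 2.87, 3.96 and 4.08 on the log2 scale.

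ATF6 is held in the ER by the chaperone BiP. When proteins misfold in the ER lumen it leaves in COPII vesicles for the Golgi, where MBTPS1 cuts its luminal part and MBTPS2 then cuts within the membrane. The freed cytosolic part enters the nucleus and raises genes of ER chaperones and degradation. CREB3 family factors are built alike and are released by the same pair of proteases, as are the sterol regulators SREBF1 and SREBF2. The counts measure the mRNA of these genes and not the cutting of their proteins.

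Across 9 comparisons of 2 groups, the 8 genes gave 72 tests, of which 11 passed at an adjusted p under 0.01 (edgeR, quasi-likelihood). Over all genes, 0.0% to 11.2% passed in these comparisons. The 11 calls fell on 4 genes. MBTPS1 was lower with high ERN2 in 4 comparisons, CREB3 was lower with high ERN2 under thapsigargin, and CREB3L2 and CREB3L4 were higher with ERN2 or with thapsigargin. ATF6, ATF6B, CREB3L1 and MBTPS2 passed in 0 of their 9 comparisons, though MBTPS2 reached an adjusted p of 0.0335 and DESeq2 called it in 1. The comparisons share libraries and are not independent of each other.

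**Figure D1:**
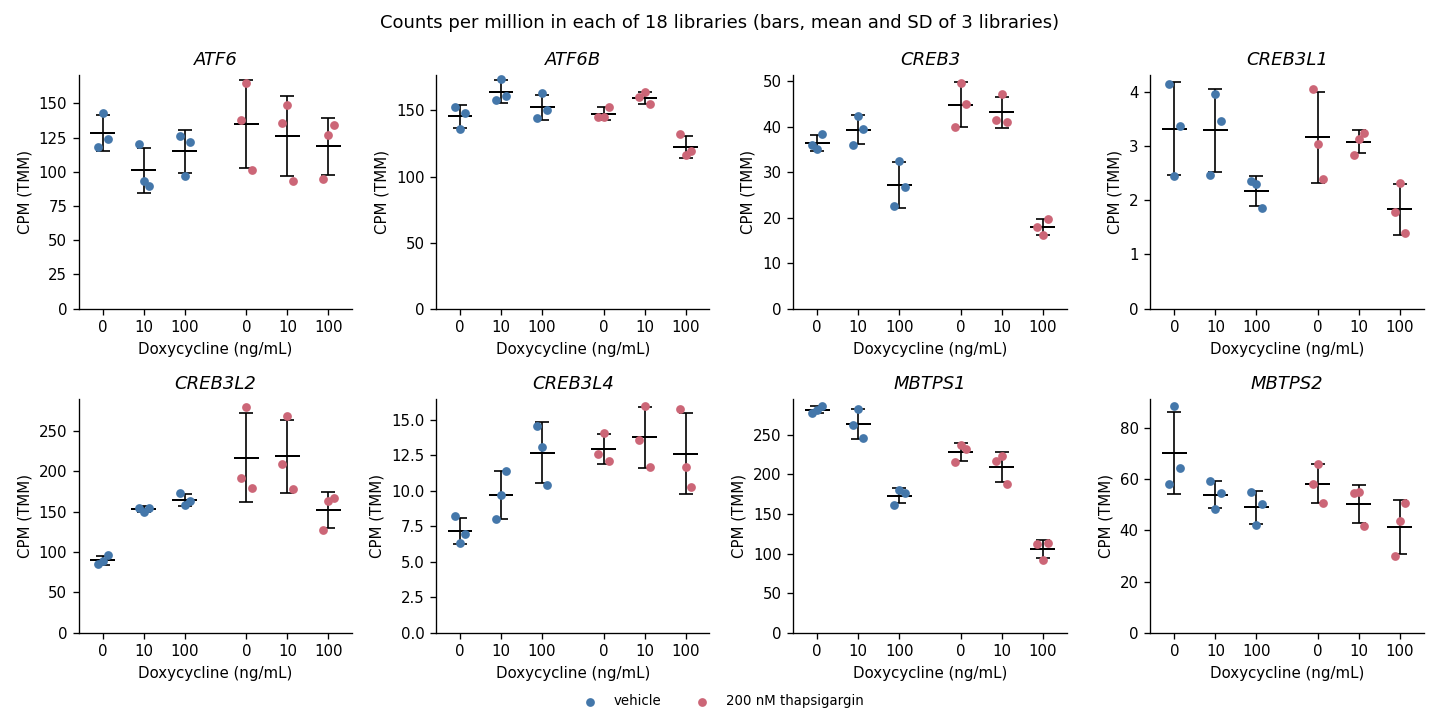
CPM (y axis, TMM-scaled, from 0) of the 8 genes in each of the 18 libraries against doxycycline dose (x axis, ng/mL), with vehicle in blue, thapsigargin in red, and bars for mean and SD of 3 libraries. MBTPS1 and CREB3 have their lowest mean at 100 ng/mL with thapsigargin, while CREB3L2 is lowest in the vehicle libraries without doxycycline.

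MBTPS1, the serine protease that makes the first cut, lies on chromosome 16, minus strand, between 84053761 and 84116906 (GRCh38, GENCODE release 29). With vehicle it was measured at 278, 282 and 286 CPM without ERN2, at 263, 283 and 246 CPM with low ERN2, and at 162, 180 and 177 CPM with high ERN2. With thapsigargin the values were 216, 237 and 232 CPM, then 217, 223 and 188 CPM, then 112, 92.5 and 113 CPM in the same order of doses. All 3 libraries at the high dose lay below every library at the other doses, with vehicle and with thapsigargin alike, and the libraries of the 0 and low doses overlapped. In bulk RNA a lower level in each cell and fewer expressing cells cannot be told apart.

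MBTPS1 fell by 0.75 ± 0.0975 (log2, SE) from no to high ERN2 with vehicle (edgeR adjusted p = 0.00016), and 92.0% of the genes tested had a higher log2 fold change. In that comparison 3 of the 8 genes passed, against 8.33% of all genes, of which 7.49% were lower and 0.838% higher. With thapsigargin MBTPS1 fell by 1.11 ± 0.135 (edgeR adjusted p = 9.92e-05), and 2 of the 8 genes passed against 10.5% of all genes, with 9.0% of all genes lower. Both calls held with DESeq2, with every scaling and without any 1 library.

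High against low ERN2 gave the same direction. MBTPS1 fell by 0.64 ± 0.104 with vehicle (edgeR adjusted p = 0.00655), the 1 gene of the 8 called there against 2.45% of all genes. With thapsigargin it fell by 0.98 ± 0.149 (edgeR adjusted p = 0.00134), 1 of 2 called against 5.55% of all genes (5.32% lower). The vehicle call was lost without low ERN2 replicate 2 and without high ERN2 replicate 1 or 3 (adjusted p 0.0544, 0.0285 and 0.0403). The thapsigargin call was lost without low ERN2 replicate 1 or 2 and without high ERN2 replicate 2 (adjusted p 0.0114, 0.0187 and 0.0229).

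Thapsigargin against vehicle did not pass for MBTPS1 at any dose in edgeR's fit of the 2 groups with group as the only factor. The log2 fold change was -0.29 ± 0.0945 without ERN2 (edgeR adjusted p = 0.0398), -0.34 ± 0.115 with low ERN2 (adjusted p = 0.104) and -0.69 ± 0.131 with high ERN2 (adjusted p = 0.0264). Its vehicle and thapsigargin libraries did not overlap at any of these doses. The high ERN2 value passed with DESeq2 (adjusted p = 0.000267), with no filter on low counts (0.00893) and in a fit of all 6 groups (0.000183). It also passed without high ERN2 thapsigargin replicate 1 (0.00125). Over all genes these settings called 728, 299, 941 and 2568, against 29 in edgeR's fit of the 2 groups. With the replicate number as a block, MBTPS1 passed without ERN2 (edgeR adjusted p = 0.00817) and with low ERN2 (0.000556). The block called 3571 and 3620 of all genes there, against 1611 and 212 without it. The test of whether the thapsigargin effect differed between high and no ERN2 gave -0.31 ± 0.137 (adjusted p = 0.181).

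The stretch upstream of the MBTPS1 start site is shown because MBTPS1 had the most calls of the 8 genes. It covers 170 bases at chr16:84116943-84117112 on the minus strand (RefSeq, GRCh38.p14), with each CCACG, on either strand, in capitals.
MBTPS1: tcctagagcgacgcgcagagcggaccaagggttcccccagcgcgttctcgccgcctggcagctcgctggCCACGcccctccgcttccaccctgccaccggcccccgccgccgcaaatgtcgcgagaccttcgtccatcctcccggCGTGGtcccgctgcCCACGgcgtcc
CCACG is the part of the ER stress element that ATF6 contacts, and it is found in 38.1% of all 35116 promoter windows in the table, so its presence is common. It was in the windows of 3 of the 8 genes, namely CREB3, CREB3L4 and MBTPS1. The whole ER stress element (CCAAT, 9 bases, CCACG) was found on neither strand of the 8 windows and in 0.0769% of all windows. ER stress element II (ATTGG, 1 base, CCACG), the element TGACGTGG and the cAMP response element TGACGTCA were also not found in the 8, against 0.0541%, 0.729% and 1.85% of all windows. These windows run from 250 bases before to 50 bases after 1 RefSeq start site per gene. That site lies 69079 bases inside the GENCODE gene for CREB3L2, 17498 for CREB3L1, 716 for CREB3L4 and 331 for CREB3, so for these genes the window does not cover the start of the GENCODE gene.

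MBTPS2, the membrane-embedded metalloprotease that makes the second cut, lies on chromosome X, plus strand, between 21839636 and 21885424. It was measured with vehicle at 58.0, 88.5 and 64.4 CPM without ERN2, 59.1, 48.4 and 54.5 CPM with low ERN2 and 54.8, 42.1 and 50.3 CPM with high ERN2. With thapsigargin it was at 58.0, 66.0 and 50.6 CPM, then 54.5, 54.9 and 41.8 CPM, then 30.0, 43.5 and 50.5 CPM. The second vehicle library without ERN2 was the highest of the 18. All high ERN2 libraries lay below those without ERN2, by a narrow margin with vehicle (54.8 against 58.0 CPM) and with thapsigargin (50.5 against 50.6 CPM), while the low ERN2 libraries overlapped those of both other doses. From no to high ERN2 with vehicle the log2 fold change of MBTPS2 was -0.56 ± 0.160 (edgeR adjusted p = 0.0335), and DESeq2 (0.00898) and the fit with no filter on low counts (0.00595) put it past the threshold. Of its exon bases, 1093 are shared with YY2 and 102 with RF00019 on the same strand, so reads there may have been split between these genes.

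CREB3, a factor of the ER and Golgi membranes, lies on chromosome 9, plus strand, between 35732335 and 35737004. Vehicle-treated libraries had 35.9, 35.2 and 38.5 CPM without ERN2, at 36.1, 42.4 and 39.6 CPM with low ERN2, and at 22.5, 32.4 and 26.7 CPM with high ERN2. With thapsigargin the libraries had 39.9, 49.7 and 45.0 CPM, then 41.4, 47.2 and 41.0 CPM, then 17.9, 16.1 and 19.7 CPM. The 3 libraries with high ERN2 and thapsigargin were the lowest of all 18, below those with high ERN2 and vehicle. The no and low ERN2 libraries overlapped.

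Under thapsigargin CREB3 fell by 1.33 ± 0.162 from no to high ERN2 (edgeR adjusted p = 0.000104) and by 1.27 ± 0.169 from low to high ERN2 (edgeR adjusted p = 0.000714). The second call was lost without low ERN2 replicate 2 (adjusted p = 0.0101) and without high ERN2 replicate 2 (0.0144), and the first held without any 1 library. With vehicle the log2 fold change of CREB3 was -0.46 ± 0.147 from no to high ERN2 (edgeR adjusted p = 0.0545) and -0.56 ± 0.149 from low to high ERN2 (adjusted p = 0.0598). The first of these passed without high ERN2 replicate 2 (adjusted p = 0.00281), and the second with the replicate number as a block (edgeR adjusted p = 0.00184). Over all genes the first refit called 1397, against 1203, and the second 1224, against 356.

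The CREB3 response to thapsigargin had opposite signs at the outer doses. It was 0.31 ± 0.120 without ERN2 (edgeR adjusted p = 0.0836) and -0.58 ± 0.176 with high ERN2 (adjusted p = 0.0881). Neither passed, though the second did in a fit of all 6 groups (0.00497), which called 941 of all genes there, against 29. In both cases the vehicle libraries were apart from the thapsigargin libraries. Groups apart in opposite directions, in the thapsigargin responses without and with high ERN2 or in the high ERN2 effects with vehicle and with thapsigargin, were found for 2 of the 8 genes (CREB3 and CREB3L2) and 2.12% of all genes. The difference between the 2 responses was -0.81 ± 0.199 (adjusted p = 0.0644), which DESeq2 put at -0.87 (adjusted p = 0.00406). CREB3 shares 61 exon bases with TLN1 and 139 with GBA2, both on the opposite strand, and whether the counting used strand is not given in the sources used here.

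CREB3L2, a factor known for its part in the secretory load of cartilage cells, lies on chromosome 7, minus strand, between 137874979 and 138002067. With vehicle it was measured at 85.0, 88.7 and 95.8 CPM without ERN2, at 155, 149 and 155 CPM with low ERN2, and at 173, 158 and 163 CPM with high ERN2. With thapsigargin the values were 192, 280 and 179 CPM, then 209, 268 and 178 CPM, then 127, 163 and 167 CPM. The vehicle libraries without ERN2 lay below all 15 others. With vehicle, all high ERN2 libraries (158 to 173 CPM) lay above the low ERN2 libraries (149 to 155 CPM). The log2 fold change between these was 0.08 ± 0.0986 (edgeR adjusted p = 0.724). The second thapsigargin library stood highest in both the no and the low ERN2 groups, as it did for HSPA5, at 4770 and 4620 CPM against 2850 to 3100 CPM in the other libraries of these groups.

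CREB3L2 rose with vehicle by 0.77 ± 0.102 from no to low ERN2 (edgeR adjusted p = 0.00542), a fold change of 1.70. It was the 1 gene of the 8 called in that comparison, against 0.193% of all genes. From no to high ERN2 it rose by 0.83 ± 0.102 (edgeR adjusted p = 9.92e-05), a fold change of 1.78, and this call held in every setting tried. The call at the low dose was lost in a fit of all 6 groups (adjusted p = 0.0457), without any 1 of the no ERN2 libraries (0.0595, 0.0198 and 0.0282 for replicates 1, 2 and 3) and without low ERN2 replicate 2 or 3 (0.024 and 0.0126). Its log2 fold change in these fits stayed between 0.73 and 0.82.

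Thapsigargin without ERN2 raised CREB3L2 by 1.28 ± 0.152 (edgeR adjusted p = 9.54e-05), a fold change of 2.43, in every setting tried. There 2 of the 8 genes passed against 11.2% of all genes, 6.45% of all genes being higher. With low ERN2 the response was 0.50 ± 0.147 (edgeR adjusted p = 0.0673), with 0 of the 8 genes called against 1.45% of all genes. At that dose 3 of the 8 and 3602 of the 14607 genes tested had an unadjusted p under 0.05, and DESeq2 called 0 and 1039. All CREB3L2 thapsigargin libraries lay above the vehicle libraries at that dose. With the replicate number as a block 4 of the 8 genes and 3620 of all genes passed, with CREB3L2 among the 4 (edgeR adjusted p = 5.79e-05). With high ERN2 the vehicle and thapsigargin libraries of CREB3L2 overlapped, and in edgeR 0 of the 8 genes passed against 0.201% of all genes. Of the 8, 3 had an unadjusted p under 0.05, as did 3892 of the 14427 genes tested, and DESeq2 called 1 and 728.

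The thapsigargin response of CREB3L2 was smaller with high than with no ERN2 by 1.29 on the log2 scale (SE 0.230), which missed the threshold in edgeR (adjusted p = 0.0238). In that test 0 of the 8 genes passed against 0.0406% of all genes. An unadjusted p under 0.05 was found for 4 of the 8 and for 3651 of the 14768 genes tested. DESeq2 called 341 of all genes and 2 of the 8, CREB3L2 (adjusted p = 8.54e-06) and CREB3. The CREB3L2 call was also made with library totals alone (0.00345), with no filter on low counts (0.00129) and in a fit of all 6 groups (0.00414). It was made as well without high ERN2 thapsigargin replicate 1 (0.00243). Over all genes these settings called 20, 86, 35 and 1286, against 6 in the edgeR test above. At the low dose the difference was -0.77 ± 0.230 (adjusted p = 0.779). There 0 of the 8 genes and 0.0% of all genes passed in edgeR, with 1 of the 8 and 664 of all genes at an unadjusted p under 0.05, and DESeq2 called 0 and 2. Among thapsigargin libraries, CREB3L2 was -0.52 ± 0.189 from no to high ERN2 (adjusted p = 0.0697) and -0.52 ± 0.179 from low to high ERN2 (adjusted p = 0.0723), and neither passed.

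CREB3L4, a factor first described in prostate and testis, lies on chromosome 1, plus strand, between 153967534 and 153974363. Its vehicle libraries had 8.20, 6.35 and 6.97 CPM without ERN2, at 8.01, 9.68 and 11.4 CPM with low ERN2, and at 14.6, 13.1 and 10.4 CPM with high ERN2. With thapsigargin the values were 12.6, 14.1 and 12.1 CPM, then 13.6, 16.0 and 11.7 CPM, then 15.8, 11.7 and 10.3 CPM. The vehicle libraries without ERN2 overlapped those with low ERN2 and lay below those with high ERN2, while the thapsigargin libraries of all doses overlapped. These levels rest on 117 to 352 reads a library.

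CREB3L4 rose with vehicle by 0.78 ± 0.173 from no to high ERN2 (edgeR adjusted p = 0.00871). It rose with thapsigargin by 0.86 ± 0.157 without ERN2 (edgeR adjusted p = 0.00203). The first call was lost in a fit of all 6 groups (adjusted p = 0.0107) and with the replicate number as a block (0.0235). It was also lost without no ERN2 replicate 1, 2 or 3 (0.0118, 0.037 and 0.0357) or high ERN2 replicate 1 (0.0234). The second was lost only without the second thapsigargin library, where the adjusted p rounds to 0.01. The thapsigargin response was -0.76 ± 0.264 with high relative to no ERN2 (adjusted p = 0.11), and passed without high ERN2 thapsigargin replicate 1 (0.00971). Without that library 1286 of all genes passed, against 6 with it. CREB3L4 shares 280 exon bases with SLC39A1 and 95 with JTB, both on the opposite strand. Reads in those stretches cannot be told apart from theirs if strand was not used.

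CREB3L1, a factor of bone and other matrix-secreting cells, lies on chromosome 11, plus strand, between 46277661 and 46321422. It was the lowest of the 8 in every library, at 27 to 83 reads. With vehicle it was measured at 4.15, 2.44 and 3.37 CPM without ERN2, 2.46, 3.96 and 3.46 CPM with low ERN2 and 2.35, 2.31 and 1.86 CPM with high ERN2. With thapsigargin the values were 4.06, 3.04 and 2.39 CPM, then 2.84, 3.14 and 3.25 CPM, then 1.79, 2.32 and 1.39 CPM. The high ERN2 libraries lay below all others of the same treatment. The log2 fold changes from no to high ERN2 were -0.65 ± 0.246 with vehicle (edgeR adjusted p = 0.102) and -0.81 ± 0.326 with thapsigargin (adjusted p = 0.0973). Neither passed, in edgeR or in any setting tried.

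ATF6, on chromosome 1, plus strand, between 161766294 and 161964070, is the better known of the 2 ATF6 sensors. With vehicle it was measured at 118, 143 and 124 CPM without ERN2, 120, 93.4 and 89.8 CPM with low ERN2 and 126, 96.6 and 122 CPM with high ERN2. With thapsigargin it was at 138, 165 and 101 CPM, then 136, 149 and 93.4 CPM, then 95.1, 127 and 134 CPM. Libraries of every pair of groups compared overlapped. From no to low ERN2 with vehicle its log2 fold change was -0.35 ± 0.132 (edgeR adjusted p = 0.109). It passed only without low ERN2 replicate 1 (0.00366), the highest of that group. Without that library 2743 of all genes passed, against 28 with it.

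ATF6B, the second ATF6 paralog and generally held to be the weaker activator, lies on chromosome 6, minus strand, between 32115264 and 32128253. In vehicle libraries it stood at 153, 136 and 148 CPM without ERN2, 158, 174 and 161 CPM with low ERN2 and 144, 163 and 150 CPM with high ERN2. With thapsigargin it was at 145, 145 and 153 CPM, then 160, 164 and 155 CPM, then 132, 116 and 119 CPM. The 3 libraries with high ERN2 and thapsigargin were the lowest of the 18. The log2 fold change from low to high ERN2 under thapsigargin was -0.38 ± 0.138 (edgeR adjusted p = 0.0808) and passed in a fit of all 6 groups (0.00178). That from no to high ERN2 was -0.28 ± 0.130 (adjusted p = 0.146) and passed in the same fit (0.00969). The fit of all 6 groups called 2054 and 2641 of all genes in these comparisons, against 805 and 1512. ATF6B shares 71 exon bases with TNXB and 289 with AL662884.2, both on the same strand, so reads there may have been split between these genes.

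**Figure D2:**
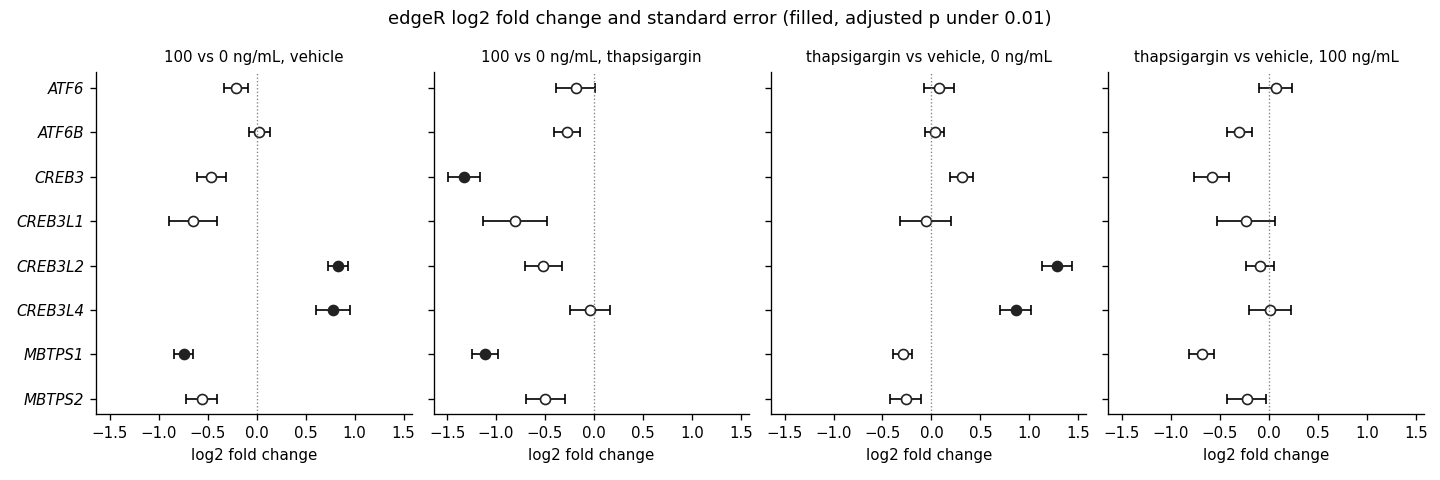
edgeR log2 fold change (x axis, with standard error) of the 8 genes (y axis) for high against no ERN2 with vehicle and with thapsigargin, and for thapsigargin against vehicle without and with high ERN2. Filled points passed an adjusted p of 0.01, 3 for high ERN2 with vehicle, 2 for high ERN2 with thapsigargin, 2 for thapsigargin without ERN2 and 0 for thapsigargin with high ERN2.

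With thapsigargin, low against no ERN2 called none of these genes in edgeR, but it did not call ERN2 itself either. ERN2 had a log2 fold change of 2.42 ± 0.384 there, with all its libraries apart (edgeR adjusted p = 0.292). A missed call in this comparison therefore does not show that a gene was unchanged. In low against no ERN2 with thapsigargin, 0 of the 8 genes and 0.0% of all genes passed in edgeR, 0 of the 8 and 612 of all genes had an unadjusted p under 0.05, and DESeq2 called 0 and 39. Deviations of same-numbered libraries from their group means correlated here (0.704, 0.658 and 0.764). Whether these libraries were handled together is not given in the labels. With the replicate number as a block 564 of all genes passed but still 0 of the 8.

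Per kilobase of exon, which allows genes to be compared, the order in vehicle libraries without ERN2 was ATF6B (40.1 ± 2.41 CPM per kilobase, SD, n = 3), MBTPS1 (27.5 ± 0.391), CREB3 (19.2 ± 0.914), ATF6 (16.3 ± 1.65), CREB3L2 (10.2 ± 0.625), MBTPS2 (7.87 ± 1.80), CREB3L4 (2.47 ± 0.324) and CREB3L1 (0.822 ± 0.212). The highest ATF6 library (18.1) came just under the lowest CREB3 library (18.5), and the highest MBTPS2 library (9.91) was above the lowest of CREB3L2 (9.67), so MBTPS2 and CREB3L2 were not apart. With high ERN2 and thapsigargin MBTPS1 was at 10.3 ± 1.13, CREB3 at 9.41 ± 0.946, CREB3L2 at 17.3 ± 2.51 and ATF6 at 15.0 ± 2.63 CPM per kilobase. The length is that of all GENCODE exons together. With the longest transcript as the length MBTPS1 came first (65.0 ± 0.922) and ATF6B second (55.5 ± 3.33) in vehicle libraries without ERN2, and MBTPS2 (15.8 ± 3.61) came above CREB3L2 (12.1 ± 0.740). With high ERN2 and thapsigargin it put MBTPS1 (24.4 ± 2.66) above CREB3L2 (20.6 ± 2.97) and ATF6 (15.8 ± 2.77), so the order of these pairs rests on the length used.

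Ratios within a library do not depend on how libraries are scaled. The 3 ratios given here were chosen with earlier results known. CREB3L2 had 2.46 ± 0.0814 reads for each CREB3 read (SD, n = 3) with vehicle and no ERN2, 3.91 ± 0.394 with low ERN2 and 6.21 ± 1.40 with high ERN2. With thapsigargin the ratio was 4.81 ± 0.828, 5.02 ± 0.673 and 8.57 ± 1.54. At each treatment the high ERN2 libraries lay above all those without ERN2, and the no and low ERN2 libraries overlapped only with thapsigargin. The ratio of MBTPS1 to MBTPS2 reads ran from 2.70 ± 0.888 with high ERN2 and thapsigargin to 4.94 ± 0.793 with low ERN2 and vehicle, and that of ATF6 to ATF6B reads from 0.617 ± 0.123 with low ERN2 and vehicle to 0.985 ± 0.228 with high ERN2 and thapsigargin.

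**Figure D3:**
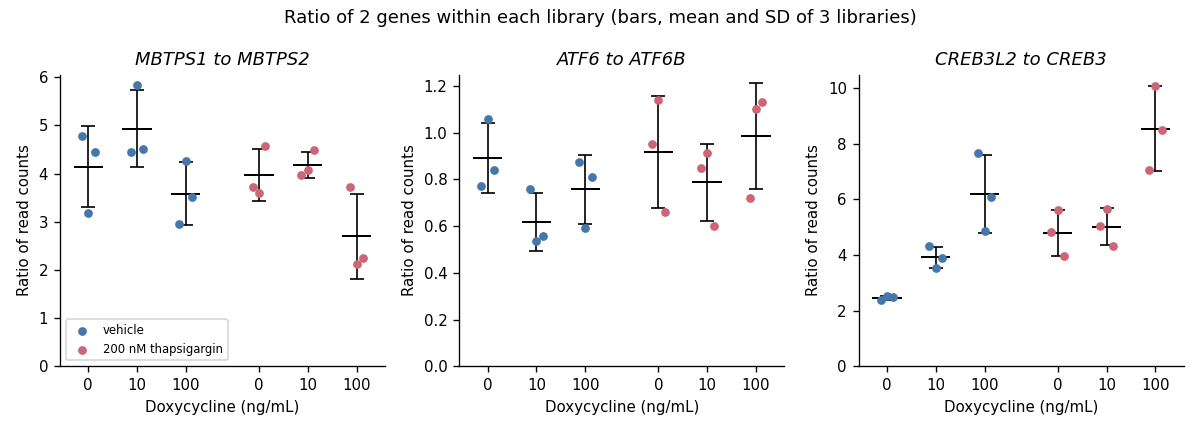
Ratio of read counts of 2 genes (y axis, from 0) in each of the 18 libraries against doxycycline dose (x axis, ng/mL), vehicle in blue and thapsigargin in red, with mean and SD of 3 libraries. From no to high ERN2 the mean CREB3L2 to CREB3 ratio goes from 2.46 to 6.21 with vehicle and from 4.81 to 8.57 with thapsigargin. Libraries overlap widely for the ATF6 to ATF6B ratio.

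Over the 18 libraries, log2 CPM of MBTPS1 and CREB3 had a Pearson r of 0.868 and those of CREB3L2 and CREB3L4 one of 0.755. These values describe 18 libraries in 6 groups that share their treatments and are not independent. Among about 11453 genes at a mean of 5 CPM or more, the nearest patterns to MBTPS1 were those of FKBP9 (r = 0.997), SMPD1 (0.993) and APLP2 (0.993). CREB3 was nearest to CHPF (0.969), RMDN3 (0.969) and LMAN2 (0.967). For CREB3L2 they were SLC33A1 (0.953), TXNDC11 (0.926) and VIMP (0.908), and for CREB3L4 PDE4DIP (0.921), PPP2R5B (0.913) and PHF1 (0.910). The nearest genes to the other 4 were YME1L1 for ATF6 (0.949), RAPGEF1 for ATF6B (0.944), CD68 for CREB3L1 (0.872) and PIGX for MBTPS2 (0.964).

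The hexamer CTGCAG holds 1 of the sites at which IRE1 proteins cut XBP1 mRNA. The coding sequences of the members were searched for this hexamer alone. The hexamer is its own reverse complement and was chosen after the expression values were known. It was found 1 time in MBTPS1 (0.317 per kilobase of coding sequence), 2 times in CREB3 (1.80) and 4 times in CREB3L2 (2.56). ATF6B held 5, CREB3L1 2, CREB3L4 1, and ATF6 and MBTPS2 0. Of 12746 genes, 71.0% held at least 1, with a median of 0.864 per kilobase. A match describes the letters only, since cutting also depends on RNA folding, and no cutting was measured.
The 30 bases around each match, with the hexamer in capitals, are shown for 3 of the 4 genes called in some comparison. That of MBTPS1 is in exon 4 of 23 at chr16:84095633-84095638, those of CREB3 in exon 9 of 9 at chr9:35736454-35736459 and chr9:35736643-35736648, and the first and last of CREB3L2 in exons 1 and 11 at chr7:138001667-138001672 and chr7:137882420-137882425, on the gene's strand (GRCh38, GENCODE release 29).
MBTPS1: gttgcccagacaCTGCAGgcagatgtgctc
CREB3 first: gagctgcctgccCTGCAGtcagaagtgccg
CREB3 second: cccatcctccccCTGCAGgcaaatctcaca
CREB3L2 first: gagcagggcgtgCTGCAGtgggaccgcaag
CREB3L2 last: gtgcttttggagCTGCAGcagcacctggtc

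Genes around the members were taken from lists written from general knowledge, and counts are set beside the same comparison over all genes. Of 17 ATF6 target genes, 16 rose with thapsigargin without ERN2, where 11.2% of all genes passed and 6.45% were higher, with a median log2 fold change of 1.96 against -0.01 over all genes. HERPUD1 (4.08) and HSPA5 (2.87), the gene of BiP, rose most, and PDIA6 (0.80) and CALR (0.99) least among those that passed. From no to high ERN2 with vehicle 7 rose and 2 fell, against 0.838% of all genes higher and 7.49% lower, with a median of -0.01, as over all genes. XBP1 (1.03) and DERL3 (1.02) were highest, and CALR (-1.45), the calcium-binding chaperone calreticulin, and OS9 (-1.05), an ER lectin, fell. Under thapsigargin 12 of the 17 were lower with high than with no ERN2 and 0 higher, against 9.0% of all genes lower, with a median of -0.93 against 0.04 over all genes.

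A list of MBTPS1 substrates and of genes that act on SREBPs or on MBTPS1 had 7 genes tested. These were SREBF1, SREBF2, GNPTAB, SCAP, INSIG1, INSIG2 and C12orf49, and not all of them encode substrates. From no to high ERN2 with vehicle 6 of the 7 fell, against 7.49% of all genes, with a median log2 fold change of -1.10 against -0.01 over all genes. Under thapsigargin 4 of the 7 were lower with high than with no ERN2, against 9.0% of all genes. INSIG1 (-1.83), which holds the SREBP escort in the ER, and SREBF1 (-1.18) were lowest, and C12orf49 (-0.71), a partner of MBTPS1, and the escort SCAP (-0.57) fell least. Thapsigargin without ERN2, where 11.2% of all genes passed in either direction, lowered 2 of the 7, GNPTAB (-0.78), a subunit gene of the lysosomal targeting enzyme, and INSIG1 (-0.66).

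Of 16 genes for holding, removal and COPII transport of ATF6, 5 rose and 1 fell from no to high ERN2 with vehicle. Over all genes 8.33% passed in that comparison and 11.2% with thapsigargin and no ERN2, and the median log2 fold change was -0.01 in both, which also holds for the counts that follow. The median of the 16 was 0.31 in the first and 0.38 in the second. The coat genes SEC24D (1.64) and SEC24C (0.87) were highest and SYVN1 (0.73) was the lowest of those that rose, while TXNDC12 (-2.08), an ER oxidoreductase, fell. With thapsigargin and no ERN2, 5 rose, namely HSPA5, SEL1L (1.88), SEC24D (1.61), SYVN1 (1.55) and PDIA5 (0.74). Of 6 CREB3 family target genes tested, SEC24D, HERPUD1 (0.87) and ARF4 (0.59) rose with high ERN2 and vehicle. With thapsigargin and no ERN2 HERPUD1 and SEC24D rose while COL1A1 (-0.92) and the cell cycle inhibitor CDKN1A (-0.56) fell. Their medians were 0.40 and 0.05. Of 9 nuclear partner genes (medians 0.06 and 0.10), adjusted p from no to high ERN2 with vehicle ranged from 0.0473 to 0.918, and thapsigargin raised CREBBP (0.69), a coactivator. The other ER stress sensors ERN1 and EIF2AK3 rose with thapsigargin by 1.06 and 1.51, and from no to high ERN2 with vehicle had -0.70 (adjusted p = 0.0175) and 0.29 (0.157). Under thapsigargin, where 10.5% of all genes passed, 1 of the 9 partners was higher with high than with no ERN2, NFYA (0.61, adjusted p = 0.00726), a subunit of the CCAAT-binding factor, and ERN1 was lower (-1.48, adjusted p = 0.000205). EIF2AK3 had -0.62 there (adjusted p = 0.0375). Of the 16 genes 3 were lower, and of the 6 CREB3 family targets 0 passed. All of these are edgeR values.

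**Figure D4:**
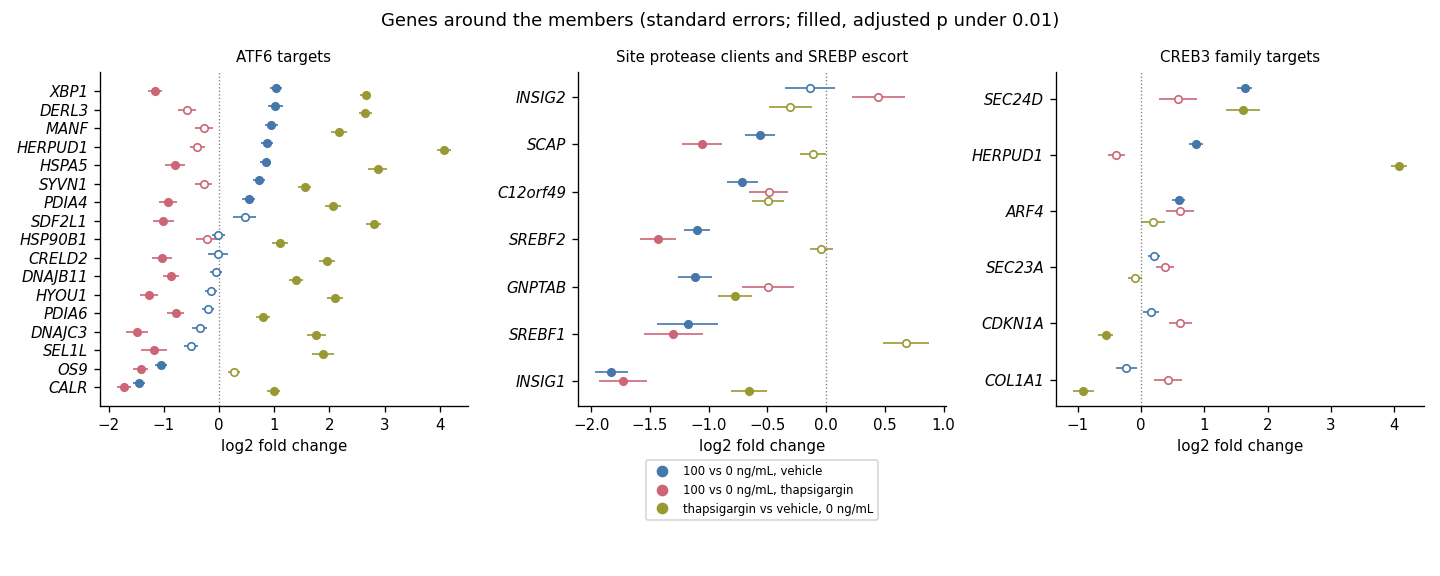
edgeR log2 fold change with standard error (x axis) for genes of 3 lists (y axis), for high against no ERN2 with vehicle (blue) and with thapsigargin (red) and for thapsigargin against vehicle without ERN2 (olive), filled where the adjusted p was under 0.01. For high against no ERN2 with vehicle, 7 ATF6 targets passed the threshold above 0 and 2 below 0. In the list of site protease clients and SREBP escort, 6 of 7 genes passed below 0.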

How the data were processed

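The authors aligned single-end reads of KAPA stranded mRNA libraries with STAR in VIPER (hg38 per the submitters' processing notes) and deposited raw counts per gene symbol, 1 column a library, with no normalization. Which aligner version, annotation and strand option were used is not given in the sources used here. Columns were matched to samples by the column number in the labels. Replicates were further apart than sampling noise (chi-square per degree of freedom 7.33 to 63.8), so all 18 were kept.

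Each comparison used only its own groups. Genes were filtered by filterByExpr (minimum count 10), scaled by TMM and tested with edgeR 4.0.16 (quasi-likelihood, R 4.3.3) with Benjamini-Hochberg adjustment over all genes and a threshold of 0.01, as in the study's methods. SE values are the log2 fold change over the square root of F. Interactions were fitted on 12 libraries. CPM were scaled by TMM over all libraries. The scripts were tested on simulated data. Library totals were 14876416 to 24652240 counts, and an exact permutation test of 3 against 3 cannot go below p = 0.1.

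Alternatives were DESeq2 1.42.0, RLE size factors, library totals alone, no filter on low counts, all 6 groups in one fit, the replicate number as a block, each library left out, and the longest transcript as gene length. Replicate numbers come from the labels, which name no shared batch. Deviations from the group means of same-numbered libraries correlated above 0.1 in all 3 pairs only for low against no ERN2 with thapsigargin (0.704, 0.658 and 0.764). The block is given beside that result, and elsewhere where it changed the call of a member.

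Named genes are all members, ERN2, HSPA5, DDIT3, HERPUD1, the most alike genes by Pearson r, and of each list every called gene, or the 2 highest and 2 lowest where more than 5 were called. Members and lists were chosen with earlier results of these data known. Positions and exon lengths came from GENCODE release 29, and promoter windows from RefSeq (GRCh38.p14), in which all 8 members matched. Protein sequences were not used here. The extraction label names colon crypt cells, whereas the source labels name this line. Figures used matplotlib 3.10.9 in Python 3.11.15.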

Additional observations from a re-analysis of the deposited data

Results flagged for a closer look

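The thapsigargin response with high ERN2 was set against that without ERN2, and 5 of 11 genes examined (the 8 described here and 3 thapsigargin check genes) stood out by the test of the difference or by groups that lay apart in opposite directions. Over all genes, 0.0406% passed the test and 2.12% had groups apart in opposite directions. HSPA5, HERPUD1 and DDIT3 are the check genes. HSPA5 (-1.58 on the log2 scale, adjusted p = 0.00897) and HERPUD1 (-1.21, adjusted p = 0.00741) passed edgeR's test of that difference. The other genes did not pass it. CREB3L2 had a difference of -1.29 (adjusted p = 0.0238). All its high ERN2 libraries lay above those without ERN2 with vehicle and below them with thapsigargin, and the same held for DDIT3 (-1.32, adjusted p = 0.0101), HSPA5 and HERPUD1. CREB3 had a difference of -0.81 (adjusted p = 0.0644), with all thapsigargin libraries above the vehicle libraries without ERN2 and below them with high ERN2.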

How the results depend on the processing

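For the 40 results of 1 gene that had an unadjusted p under 0.05 or were called under some setting, 510 refits kept the direction in all, and 465 stayed on the same side of the threshold, 21 lost a call and 24 gained one. Of the 48 other results, 24 changed sign in some setting. The mean CPM of the 8 genes moved by less than 1 SD in all 48 cases with library totals alone, and 34 of 48 levels per kilobase moved by more with the longest transcript as the length. The number of the 8 genes called went from 1 to 0 for low against no ERN2 with vehicle in a fit of all 6 groups. For thapsigargin with high ERN2 it went from 0 to 1 with DESeq2 and with no filter, and to 2 in a fit of all 6 groups. For the interaction at high ERN2 it went from 0 to 2 with DESeq2 and to 1 with library totals alone, with no filter and in a fit of all 6 groups. With the replicate block it went from 1 to 2 for high against low ERN2 with vehicle and from 0 to 4 for thapsigargin with low ERN2. The calls gained with the block were CREB3 in the first (-0.57, edgeR adjusted p = 0.00184), and CREB3L2 (0.48, 5.79e-05), CREB3L4 (0.50, 0.00583), MBTPS1 (-0.34, 0.000556) and ATF6 (0.30, adjusted p rounding to 0.01) in the second. MBTPS1 also passed for thapsigargin without ERN2 (-0.29, 0.00817), and CREB3L4 no longer passed for high against no ERN2 with vehicle (0.0235). The cause was not tested.

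Leaving out 1 library gave 0 to 2 of the 8 genes for low against no ERN2 with vehicle, 2 to 4 for high against no, 0 to 1 for high against low, 1 to 2 for thapsigargin without ERN2, 0 to 1 for thapsigargin with high ERN2, 0 to 2 for high against low ERN2 with thapsigargin and 0 to 2 for the interaction at high ERN2. The highest of these counts came with 2743 of all genes called for low against no ERN2 with vehicle. For thapsigargin with high ERN2 it came with 2568 and for the interaction with 1286. For high against no ERN2 with vehicle the calls over all genes ran from 915 to 1397. Same-numbered libraries correlated from -0.661 to 0.809 over the 9 comparisons, and all 3 pairs were above 0.1 in 1 of these. The values were 0.776, -0.0604 and 0.766 for thapsigargin with low ERN2. For high against low ERN2 with vehicle they were 0.809, 0.591 and -0.151, and for high against no ERN2 with vehicle -0.314, -0.661 and 0.175. Whether same-numbered libraries were handled together is not given in the labels.

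Over all genes, counts called differed by more than 1.5 times from edgeR's in these settings. With DESeq2 they went from 28 to 378 (low against no ERN2, vehicle), 356 to 783 (high against low, vehicle), 212 to 1039 and 29 to 728 (thapsigargin with low and high ERN2), 1512 to 2312 and 805 to 1612 (high against no and against low, thapsigargin) and 6 to 341 (interaction, high). With no filter the same comparisons other than the fifth gave 623, 638, 529, 299, 1646 and 86, and a fit of all 6 groups gave 3, 628, 676, 941, 2641, 2054 and 35. Library totals alone gave 51 (28 higher and 23 lower, against 26 and 3) for thapsigargin with high ERN2 and 20 for the interaction, where RLE gave 14. With the replicate block the counts were 124 for low against no, 750 (against 1203) for high against no and 1224 for high against low ERN2 with vehicle, 3571 (against 1611), 3620 and 4 for thapsigargin with no, low and high ERN2, 384 for high against low ERN2 with thapsigargin and 3 for the interaction. Leaving out 1 library gave 0 to 2743 for low against no and 0 to 496 for high against low ERN2 with vehicle, 731 to 1901, 28 to 494 and 4 to 2568 for thapsigargin with no, low and high ERN2, 763 to 3950 and 42 to 2712 for high against no and low ERN2 with thapsigargin, and 2 to 1286 for the interaction.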
